A study of Homo sapiens with 12 samples.

Results

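The 42 genes described here lie on the long arm of human chromosome 20, in band 20q13, and include ZNF217 and BCAS1. They were taken by symbol from the GENCODE 29 gene set, matched to Ensembl identifiers in both expression tables, and ordered by position, and all 42 were found among the 58735 genes of each table. On GRCh38 they run from the start of EYA2 at position 46894624 to the end of CTSZ at position 59007247, a span of 12.1 Mb. The same span holds 184 genes that were not on the list, 28 of them protein coding. RNA was measured in 12 libraries of cultured breast cancer cells, with 3 libraries in each of 4 groups. SK-BR-3 is an established HER2-positive breast cancer line. SK/EPI is a single line derived from it by prolonged stepwise exposure to rising doses of the anthracycline epirubicin, so all of its libraries describe 1 resistant derivative. The other groups are SK/EPI cells transfected for 48 h by Lipofectamine RNAiMax with siRNA to BCRP, named SK/EPI-siBCRP, or with the control siNC, named SK/EPI-siControl. BCRP is the drug efflux pump encoded by ABCG2. The labels give no sign that the 3 libraries of a group came from separate derivations, so p-values measure the spread between these samples, which may be technical.

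Gain of 20q13 is a recurrent change in breast tumours, and several genes of the band have been proposed as the ones that matter in it. ZNF217 encodes a zinc finger repressor, NCOA3 a coactivator of nuclear receptors, AURKA a mitotic kinase, and PTPN1 a tyrosine phosphatase. BCAS1 and BCAS4 were named as breast carcinoma amplified sequences. Genes that are gained together need not be transcribed together, because each keeps its own promoter. DNA copy number was not analysed here.

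Promoter windows of 3 genes show how the sequence before the start differs along the band. They were read from RefSeq on GRCh38.p14 and hold the 250 bases before the annotated start, written 5′ to 3′ on the strand of the gene, with each CG dinucleotide in capitals. PREX1 was chosen for its large fall in SK/EPI, BCAS4 for a smaller fall, and NCOA3 as a gene that rose. The PREX1 window is chr20:48828000-48828249 on the minus strand, the BCAS4 window is chr20:50794644-50794893 on the plus strand, and the NCOA3 window is chr20:47501637-47501886 on the plus strand.
PREX1: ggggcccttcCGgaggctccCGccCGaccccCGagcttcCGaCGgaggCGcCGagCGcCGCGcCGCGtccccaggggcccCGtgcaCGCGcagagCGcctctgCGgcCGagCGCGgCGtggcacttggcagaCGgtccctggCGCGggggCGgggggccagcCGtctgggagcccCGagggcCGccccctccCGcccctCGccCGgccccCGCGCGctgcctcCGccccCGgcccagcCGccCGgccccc
BCAS4: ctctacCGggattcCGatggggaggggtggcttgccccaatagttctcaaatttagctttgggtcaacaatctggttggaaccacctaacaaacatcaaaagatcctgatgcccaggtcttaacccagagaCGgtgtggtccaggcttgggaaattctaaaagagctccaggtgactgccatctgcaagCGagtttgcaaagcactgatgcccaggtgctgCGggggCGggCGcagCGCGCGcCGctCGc
NCOA3: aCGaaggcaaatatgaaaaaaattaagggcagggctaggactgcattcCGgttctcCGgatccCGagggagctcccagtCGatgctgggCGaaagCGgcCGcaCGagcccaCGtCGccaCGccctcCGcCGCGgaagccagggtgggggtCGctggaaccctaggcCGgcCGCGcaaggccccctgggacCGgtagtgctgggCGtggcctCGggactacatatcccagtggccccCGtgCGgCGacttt
The PREX1 window was 84.8% G or C with 39 CG dinucleotides, the NCOA3 window 66.4% with 25, and the BCAS4 window 56.0% with 12. A window was found for 33 of the 42 genes. None was found for BMP7, SALL4, AURKA, BCAS1, PARD6B, CYP24A1, CASS4, ZNFX1 and EYA2. The windows thus leave out BCAS1, EYA2, BMP7, SALL4 and PARD6B, which are among the genes that changed most in SK/EPI. Their median G or C content was 68% with a median of 23 CG dinucleotides, against 58% and 11 over all 35116 promoter windows of the table. The letters TATAAA, searched on both strands, occurred in 3 of the 33 windows (9.09%, in CEBPB, MOCS3 and NFATC2) and in 10.7% of all windows. The letters CCAAT, searched the same way, occurred in 9 of the 33 (27.3%) and in 32.0% of all windows. No methylation or factor binding was analysed here.

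Values are FPKM, reads scaled to the length of a gene's merged exons and to the library, which allows levels of different genes to be set beside each other. The libraries of SK-BR-3 and SK/EPI held 15830381 to 19051182 reads on genes, and the siRNA libraries 17078952 to 20545811. The targeted gene ABCG2 had a mean of 33.0 ± 0.673 FPKM in SK/EPI-siControl and 3.08 ± 0.345 in SK/EPI-siBCRP (SD, n = 3). It had 0.0497 ± 0.0266 FPKM in SK-BR-3 and 34.1 ± 1.61 in SK/EPI. Of 8 luminal and HER2 markers, 7 reached 1 FPKM in each group, and the exception was CDH1, which was listed at 0 in all SK-BR-3 libraries. The summed level of this list was 3544 to 3740 FPKM in SK-BR-3, 2213 to 2332 in SK/EPI, 2619 to 2667 in SK/EPI-siControl and 2187 to 2226 in SK/EPI-siBCRP. ERBB2, which encodes HER2, had a mean of 659 FPKM in SK-BR-3 and 133 in SK/EPI. Means of KRT19 went from 1651 to 509, of GRB7 from 112 to 45.5 and of ESRP1 from 7.71 to 7.08. Other markers of the list went the other way, KRT18 from 358 to 601, KRT8 from 765 to 902 and EPCAM from 86.4 to 91.7. The summed level of 3 basal markers was at most 0.101 FPKM in SK-BR-3 and 9.08 to 10.5 in SK/EPI, mostly from KRT5. It was 22.4 to 23.1 in SK/EPI-siControl and 27.2 to 27.9 in SK/EPI-siBCRP. Single markers of endothelial cells and leukocytes, CDH5 and CD14, also differed, with summed lists of 27.0 to 28.1 and 27.1 to 28.9 FPKM in SK/EPI against 6.67 to 6.99 and 1.39 to 1.77 in SK-BR-3. In the siRNA libraries the endothelial list summed to 13.9 to 14.1 FPKM in SK/EPI-siControl and 22.3 to 22.5 in SK/EPI-siBCRP, and the leukocyte list to 7.26 to 8.27 and 8.74 to 9.60. The list of 4 fibroblast markers summed to at most 1.64 FPKM in any library. The part of these markers in the results below was not tested.

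Most of the listed genes were active in these cells. In the first table, 32 of 42 had a mean of at least 1 FPKM in both SK-BR-3 and SK/EPI, 3 in SK-BR-3 alone (EYA2, BCAS1 and BMP7), 1 in SK/EPI alone (SALL4), and 6 in neither. In SK-BR-3 the highest levels were those of RNF114, a ubiquitin ligase, with 121 ± 4.61 FPKM (SD, n = 3), PREX1, a guanine nucleotide exchange factor for Rac GTPases, with 105 ± 1.84, and CSE1L, the export receptor that returns importin alpha to the cytoplasm, with 88.7 ± 5.69. In SK/EPI the order was led by CEBPB, a leucine zipper transcription factor, with 166 ± 9.98 FPKM, then GNAS, the alpha subunit of the stimulatory G protein, with 108 ± 1.87, and CSE1L with 83.5 ± 0.519. RNF114 came next there with 79.7 ± 0.615 FPKM. The order is by FPKM and depends on the merged exon length, which was 13320 bases for GNAS and 4344 for RNF114. By reads in SK-BR-3, GNAS held 15654 to 20565 per library and RNF114 8005 to 10074.

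The first comparison asks how the resistant line differs from its parent. Against SK-BR-3, SK/EPI cells had lost nearly all BCAS1, EYA2 and BMP7 mRNA and most PREX1 mRNA, and had gained SALL4, PARD6B and CEBPB mRNA. ZNF217 did not pass the test. Of the 42 genes, 39 had enough reads to be tested, and of these 16 rose, 18 fell and 5 did not pass (limma on log2(FPKM + 1), Benjamini-Hochberg adjusted p under 0.05 over all genes tested). This is 87.2% of the tested genes of the list, read against 74.9% of all 15823 genes tested, of which 37.9% rose and 37.0% fell. EYA2, BCAS1, BMP7 and SALL4 were near or below the minimum of reads in 1 of the groups and entered the test through the other, so the counts describe the list and support nothing further. The 3 libraries of each group did not overlap in 35 of the 39 genes (89.7%) and in 77.7% of all genes tested. The median log2 fold change of the list was -0.07, and 0.01 over all genes tested. The list's median lay at 0.01 when the libraries were scaled by the reads on genes, so its sign rests on the scaling. The median size of a change was 0.44 in the list and 0.36 over all genes. Of the 34 genes that passed, 18 changed by less than 0.5 on the log2 scale.

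**Figure D1:**
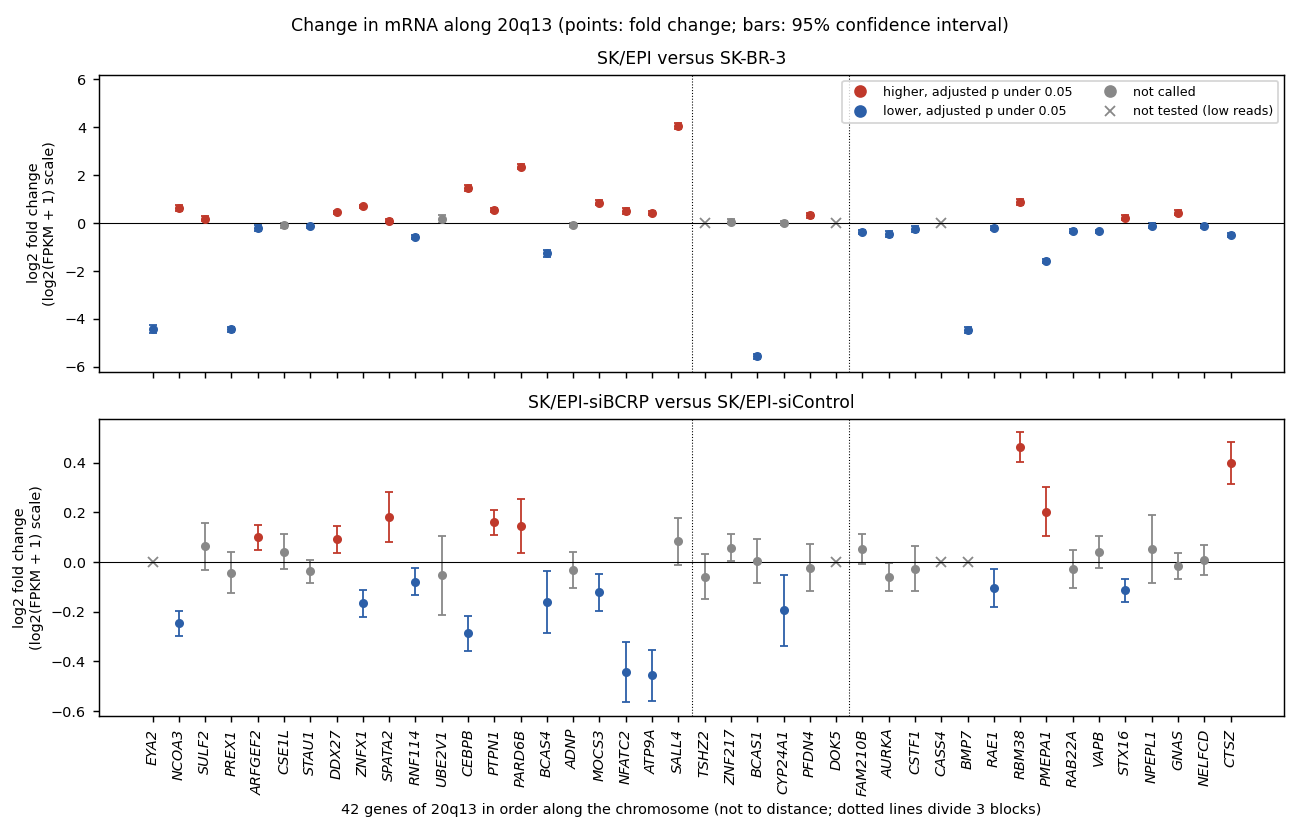
Log2 fold change, on the log2(FPKM + 1) scale, of the 42 genes in their order along 20q13, with the 95% confidence interval from limma, for SK/EPI versus SK-BR-3 (above) and SK/EPI-siBCRP versus SK/EPI-siControl (below). Above, 4 genes spread over the span lie below -4 and SALL4 lies above 4, while below, where the axis is narrower, every gene lies between -0.46 and 0.46.

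Changes of at least 1 on the log2 scale were made by 9 of the 39 tested genes. The 6 that fell by that much are 15.4% of the list, and 6.53% of all genes tested fell as far. The 3 that rose by that much are 7.69%, against 7.87% of all genes. EYA2, BCAS1 and BMP7 are among these fallers and SALL4 is among the risers. They entered the test through the group where they were high, so these shares describe the list and support nothing further.

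BCAS1 is known as a protein of myelin-forming cells and takes its name from breast cancer amplicons. It was read at 44.1, 48.0 and 47.0 FPKM in the SK-BR-3 libraries, which is 5735 to 7324 reads. In the SK/EPI libraries it had 1, 0 and 0 reads. With every SK/EPI library at or under 3 reads, the floor used here, BCAS1 was at least 2376-fold lower in SK/EPI, and its fitted log2 fold change of -5.56 (SE 0.05) was the lowest of the list. In bulk RNA, fewer cells with the transcript and less transcript per cell cannot be told apart. ZNF217 lies 326869 bases away on the same strand. It had 44.3, 48.1 and 49.2 FPKM in SK-BR-3 and 48.9, 50.2 and 48.5 in SK/EPI, and these ranges overlap. Its log2 fold change was 0.06, with a 95% confidence interval of -0.04 to 0.16 and an adjusted p of 0.233. It passed the threshold when libraries were scaled by reads on genes, without chromosome M or with voom, with a log2 fold change of at most 0.16.

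EYA2, a transcriptional coactivator with phosphatase activity, is the first gene of the span. Its levels were 18.9, 22.7 and 19.7 FPKM in SK-BR-3 and at most 1 read in any SK/EPI library, at least 462-fold lower (log2 fold change -4.40, SE 0.07). NCOA3, 313057 bases further along, had 21.0, 23.7 and 23.7 FPKM in SK-BR-3 and 36.5, 36.2 and 33.9 in SK/EPI. All SK/EPI libraries lay above all SK-BR-3 libraries, and NCOA3 rose by 0.62 (SE 0.05, adjusted p = 1.6e-05). PREX1 had 104, 104 and 107 FPKM in SK-BR-3 and 3.69, 3.92 and 4.11 in SK/EPI. It was 26.8-fold lower by mean FPKM and its log2 fold change was -4.43 (SE 0.04), and it was still read at 524 or more reads in every SK/EPI library. The unlisted lincRNA AL133342.1, which spans the start of PREX1 on the same strand, went from 7.61 ± 1.45 to 0.241 ± 0.0777 FPKM (SD, n = 3, log2 fold change -2.78).

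BMP7, a secreted ligand of the TGF-beta superfamily, had 24.1, 24.3 and 22.8 FPKM in SK-BR-3. In SK/EPI it had 0.113, 0.194 and 0.0887 FPKM, which is 9 to 19 reads, a level 180-fold lower by mean (log2 fold change -4.45, SE 0.06). PMEPA1, a membrane protein that restrains TGF-beta signalling, had 42.7, 41.96 and 45.1 FPKM in SK-BR-3 and 13.8, 14.2 and 13.3 in SK/EPI. The groups were far apart and PMEPA1 fell by 1.58 on the log2 scale (SE 0.04). NKILA, an unlisted antisense RNA that shares 13.2% of its exonic bases with PMEPA1, fell by 1.00. BCAS4 had 6.48, 5.80 and 6.59 FPKM in SK-BR-3 and 2.00, 2.07 and 2.05 in SK/EPI, and fell by 1.26 (SE 0.06).

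SALL4, a zinc finger transcription factor of embryonic stem cells, showed the opposite extreme. Its levels were 0.0655, 0.115 and 0.109 FPKM in SK-BR-3, which is 6 to 12 reads, and 17.8, 16.2 and 17.3 FPKM in SK/EPI. The mean was 177-fold higher in SK/EPI (log2 fold change 4.04, SE 0.06). Its neighbour ATP9A, an endosomal phospholipid flippase 13696 bases away, changed by 0.41. PARD6B, a scaffold of the cell polarity complex, had 3.01, 3.33 and 3.16 FPKM in SK-BR-3 and 20.5, 20.5 and 20.03 in SK/EPI. It was 6.44-fold higher by mean (log2 fold change 2.36, SE 0.04). It lies 38098 bases before BCAS4, which fell. CEBPB had 62.0, 58.7 and 58.4 FPKM in SK-BR-3 and 159, 178 and 162 in SK/EPI, 2.78-fold higher by mean (log2 fold change 1.46, SE 0.05). CEBPB shares 11.8% of its exonic bases with CEBPB-AS1 on the other strand, and the library kit named in the labels does not mark strand.

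**Figure D2:**
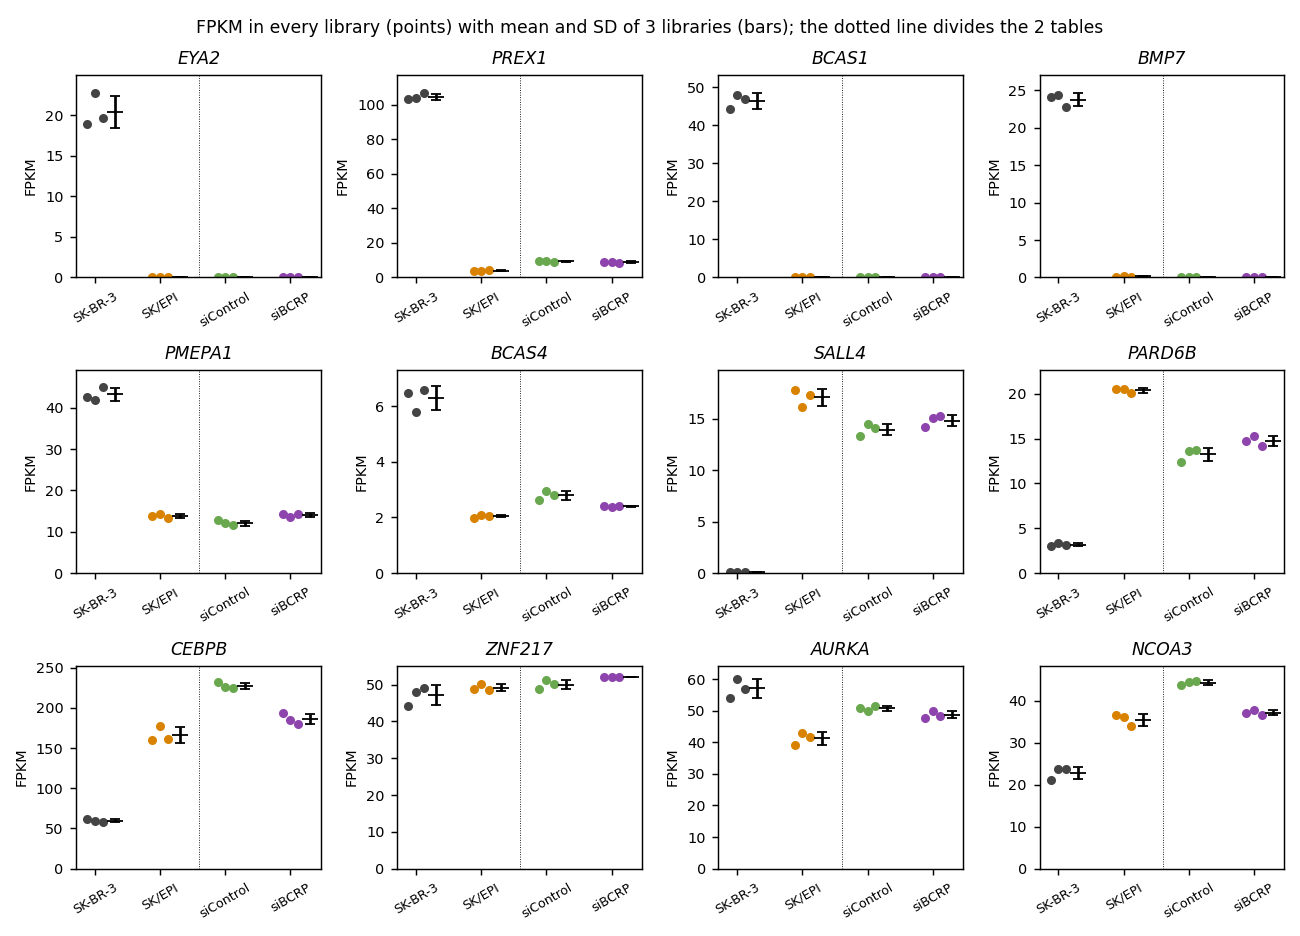
FPKM in every library of 12 genes, with the mean and SD of each group (n = 3), on axes that start at 0 and differ between genes. The tables on either side of the dotted line may have been normalized separately. EYA2, BCAS1 and BMP7 are near 0 in all SK/EPI groups, siRNA-treated ones included, SALL4 is near 0 in SK-BR-3, and ZNF217 lies between 44.3 and 52.2 FPKM in all 12 libraries.

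The rises that followed in size were smaller. RBM38, an RNA-binding protein and p53 target, had 28.9, 26.4 and 29.8 FPKM in SK-BR-3 and 50.7, 54.1 and 54.2 in SK/EPI (log2 fold change 0.88). MOCS3, an enzyme of sulfur transfer, had 6.87, 7.31 and 6.91 FPKM in SK-BR-3 and 13.3, 13.5 and 13.8 in SK/EPI (log2 fold change 0.85). ZNFX1, a helicase-like zinc finger protein of the antiviral response, had 21.1, 22.3 and 22.3 FPKM in SK-BR-3 and 36.1, 36.0 and 36.1 in SK/EPI (log2 fold change 0.70). In each of the 3 genes every SK/EPI library was above every SK-BR-3 library. PTPN1 had 30.7, 31.7 and 32.8 FPKM in SK-BR-3 and 45.6, 48.1 and 48.4 in SK/EPI, and rose by 0.56 (SE 0.04, adjusted p = 3.6e-06). AURKA had 54.1, 60.2 and 57.0 FPKM in SK-BR-3 and 39.1, 43.1 and 41.7 in SK/EPI, and fell by 0.46 (SE 0.05, adjusted p = 7.2e-05). Of the genes proposed as drivers of the gain, NCOA3 and PTPN1 were thus higher in the resistant line, AURKA lower, and ZNF217 not separable from the parent in the fit reported.

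By role, of 9 genes of transcription and chromatin 8 were tested, 4 rose (SALL4, CEBPB, NCOA3, and NFATC2, the calcineurin-dependent factor, by 0.51) and 2 fell (EYA2, and NELFCD, a subunit of the negative elongation factor, by 0.11). Counts by role are read against 37.9% up and 37.0% down over all genes tested. ADNP, a chromatin protein, had a log2 fold change of -0.07 and did not pass, and TSHZ2, a zinc finger protein, had 6 to 18 reads per library and was not tested. Of 9 signalling genes, 7 were tested, 4 rose and 3 fell. The risers were PARD6B, PTPN1, GNAS (0.44) and SULF2, an extracellular heparan sulfate sulfatase, by 0.19 from 8 to 15 reads in SK-BR-3 to 26 to 34 in SK/EPI. The fallers were PREX1, BMP7 and PMEPA1. The adaptor genes DOK5 and CASS4 had at most 3 reads in any library of this comparison.

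In membrane traffic, 2 of 5 genes rose and 3 fell, where 37.9% of all genes tested rose and 37.0% fell. ATP9A and the SNARE STX16 (0.22) rose, while VAPB, an endoplasmic reticulum contact protein, the endosomal GTPase gene RAB22A, and ARFGEF2, an exchange factor for ARF GTPases, fell by 0.34, 0.33 and 0.21. In RNA handling and nuclear transport, 3 of 7 rose and 3 fell. RBM38, ZNFX1 and the nucleolar helicase DDX27 (0.45) rose. The cleavage stimulation factor subunit CSTF1 fell by 0.24, the mRNA export factor RAE1 by 0.20 and the double-stranded RNA-binding protein STAU1 by 0.13, and CSE1L had -0.08 without passing. Of 6 genes of ubiquitin, mitosis and proteolysis, 1 rose, SPATA2, a partner of the deubiquitinase CYLD, by 0.10. RNF114, AURKA, the lysosomal protease CTSZ and the aminopeptidase NPEPL1 fell by 0.60, 0.46, 0.49 and 0.11, and the ubiquitin-conjugating variant UBE2V1 had 0.17 without passing, although it passed in 6 of 14 alternatives. Of the 6 remaining genes, MOCS3 and the prefoldin subunit PFDN4 (0.34) rose, BCAS1, BCAS4 and the mitochondrial protein FAM210B (-0.36) fell, and CYP24A1, which inactivates vitamin D, was read at 6 to 11 reads and did not pass. The calls of SPATA2, NPEPL1, NELFCD, ARFGEF2 and STAU1 were each lost under at least 1 of the alternatives run, and those of SPATA2, NPEPL1 and NELFCD also when single libraries were left out. UBE2V1 shares 42.9% of its exonic bases with the readthrough gene TMEM189-UBE2V1, which was listed at 0 in every library, and STX16 and NPEPL1 share 28.4% and 22.1% with STX16-NPEPL1, so their levels are uncertain.

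Along the chromosome, 26 pairs of listed genes next to each other in order both passed, and 15 of these pairs moved the same way and 11 opposite ways. Pairs outside the list were not counted, and 37.9% of all genes tested rose and 37.0% fell. The pairs and the runs named here are thus a description and show no pattern of the band. BCAS1 lay between ZNF217 and CYP24A1, neither of which passed, and PARD6B rose beside BCAS4. A stretch of 4 listed genes, MOCS3 to SALL4, rose without a break, by 0.41 to 4.04. Among tested genes, FAM210B, AURKA, CSTF1, BMP7 and RAE1 fell in a row. AURKA and CSTF1 start 33 bases apart on opposite strands and fell by 0.46 and 0.24. FAM210B, which ends 725 bases from AURKA, fell by 0.36, and the ends of NELFCD and CTSZ lie 51 bases apart and both fell.

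Gaps of 1.17 Mb after SALL4 and 1.71 Mb after DOK5 divide the listed genes into 3 blocks. From EYA2 to SALL4, 12 of 21 tested genes rose and 6 fell, with a median log2 fold change of 0.19. From TSHZ2 to DOK5, which holds ZNF217 and BCAS1, 1 of 4 tested genes rose and 1 fell, with a median of 0.03. From FAM210B to CTSZ, 3 of 14 tested genes rose and 11 fell, with a median of -0.28. Over all genes tested, 37.9% rose and 37.0% fell. The calls of SPATA2, ARFGEF2 and STAU1 in the first block were lost in 8, 2 and 3 of 14 alternatives. Those of NPEPL1 and NELFCD in the last block were lost in 11 and 7. The unlisted genes of the same stretches gave 13 up and 4 down of 22 tested, 0 up and 1 down of 3, and 3 up and 3 down of 10. No test between blocks was made, and the genes of a block are not replicates of it.

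**Figure D3:**
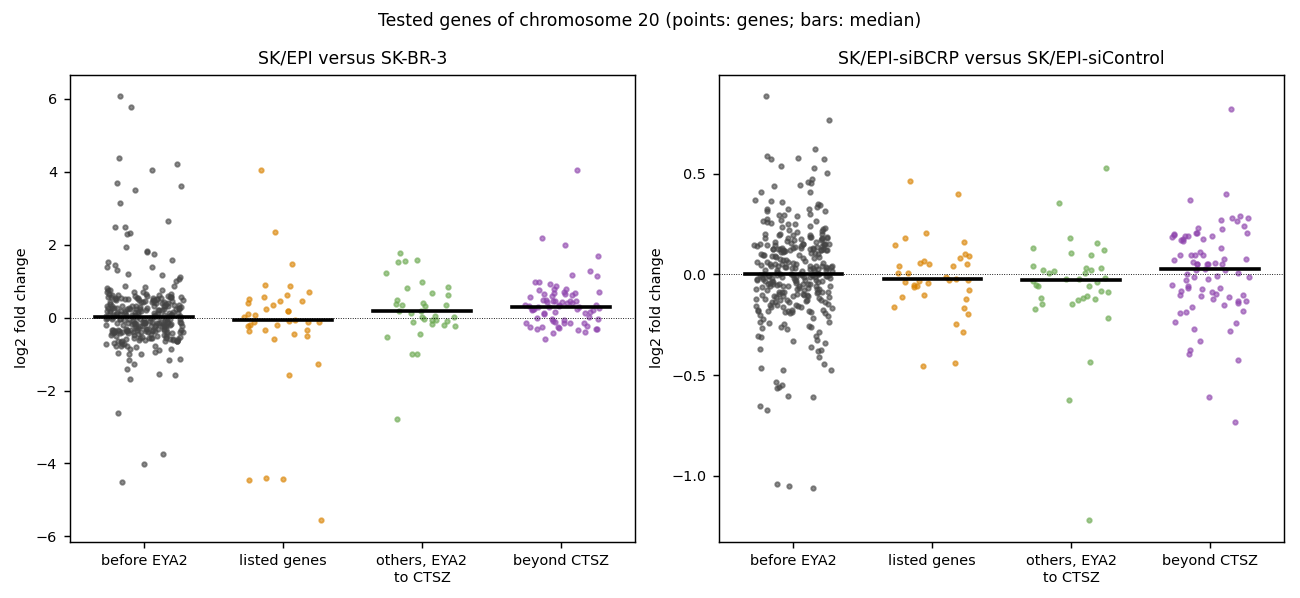
Log2 fold change of every tested gene of chromosome 20 in 4 classes, those before EYA2, the listed 20q13 genes, the unlisted genes between EYA2 and CTSZ, and those beyond CTSZ, with the median as a bar, for both comparisons. For SK/EPI versus SK-BR-3 the medians are 0.02, -0.07, 0.17 and 0.30. The 4 listed genes below -4 lie under the lowest unlisted gene of the span, at -2.78, while the lowest gene before EYA2 lies at -4.52.

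Read against the rest of the chromosome, the list had a lower median than its surroundings, a difference given as a description. Before EYA2, 300 genes were tested, 123 rose and 116 fell, and the median was 0.02. The 35 tested unlisted genes of the span had a median of 0.17 with 16 up and 8 down, and the 76 beyond CTSZ 0.30 with 46 up and 15 down. Over all genes tested, 37.9% rose and 37.0% fell, and the median was 0.01. Among unlisted genes of the span with a mean of at least 1 FPKM, the largest rises were those of B4GALT5, a galactosyltransferase, from 59.3 ± 2.86 to 206 ± 4.40 FPKM (SD, n = 3), of HMGB1P1, a processed pseudogene (1.58), and of SNAI1, the transcriptional repressor Snail (1.54). The largest falls were those of AL133342.1, NKILA and RIPOR3 (-0.98).

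The second comparison asks what follows in SK/EPI cells when BCRP is silenced. The changes were small. RBM38, CTSZ and PMEPA1 rose most, ATP9A, NFATC2 and CEBPB fell most, and neither ZNF217 nor BCAS1 passed the test. Of the 42 genes 38 were tested, 8 rose, 11 fell and 19 did not pass, so that 50.0% passed, read against 38.1% of all 16298 genes tested, of which 19.4% rose and 18.7% fell. No listed gene reached 1 on the log2 scale, a size that 0.344% of all genes tested lost and 0.0675% gained. The number that fell was 7 without SK/EPI-siBCRP replicate 1, without SK/EPI-siBCRP replicate 2 or without SK/EPI-siControl replicate 3, and 6 without SK/EPI-siControl replicate 2. The median log2 fold change was -0.02, and over all genes -0.00, and the median size of a change was 0.08 in the list and 0.12 over all genes. The libraries of the groups did not overlap in 24 of the 38 genes (63.2%) and in 50.9% of all genes tested.

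RBM38 had 40.7, 40.4 and 40.1 FPKM in SK/EPI-siControl and 58.0, 55.5 and 54.8 in SK/EPI-siBCRP, a rise of 0.46 (SE 0.03, adjusted p = 1.9e-05). RBM38 shares 12.6% of its exonic bases with AL109955.1 on the other strand. CTSZ had 48.3, 46.6 and 49.4 FPKM in SK/EPI-siControl and 66.8, 62.0 and 62.2 in SK/EPI-siBCRP, a rise of 0.40 (SE 0.04, adjusted p = 0.00017). PMEPA1 had 12.7, 12.001 and 11.5 FPKM in SK/EPI-siControl and 14.4, 13.6 and 14.2 in SK/EPI-siBCRP, a rise of 0.20. The groups did not overlap in any of the 3 genes, and the gap was narrowest in PMEPA1. SPATA2 went from 14.2, 14.4 and 12.98 FPKM to 15.6, 16.3 and 15.7 (log2 fold change 0.18), PTPN1 from 49.5, 48.7 and 49.6 to 54.7, 54.5 and 56.2 (0.16), and PARD6B from 12.4, 13.7 and 13.7 to 14.8, 15.3 and 14.1 (0.14). The PARD6B call did not hold when any 1 of 5 libraries was left out. ARFGEF2 and DDX27 rose by 0.10 and 0.09.

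ATP9A had 25.2, 26.7 and 25.0 FPKM in SK/EPI-siControl and 19.5, 18.3 and 17.5 in SK/EPI-siBCRP, a fall of 0.46 (SE 0.04, adjusted p = 0.00021). NFATC2 had 2.09, 1.95 and 2.06 FPKM in SK/EPI-siControl and 1.26, 1.27 and 1.161 in SK/EPI-siBCRP, a level 1.65-fold lower by mean (log2 fold change -0.44, SE 0.05). CEBPB had 232, 226 and 225 FPKM in SK/EPI-siControl and 193, 185 and 180 in SK/EPI-siBCRP (log2 fold change -0.29). In these genes all control libraries were above all silenced ones, and the unlisted CEBPB-AS1 also fell, by 0.44. NCOA3 went from 43.8, 44.5 and 44.8 FPKM to 37.1, 37.8 and 36.7 (log2 fold change -0.25), and ZNFX1 from 45.5, 44.7 and 46.3 to 39.7, 41.0 and 40.7 (-0.17). CYP24A1 went from 0.375, 0.450 and 0.357 FPKM to 0.323, 0.179 and 0.156 (-0.19), but on 12 to 34 reads per library, and its call was lost in 7 of 14 alternatives. BCAS4, MOCS3, STX16, RAE1 and RNF114 fell by 0.16, 0.12, 0.11, 0.10 and 0.08. The calls of BCAS4, RNF114, RAE1 and MOCS3 were lost in 8, 7, 6 and 3 of 14 alternatives.

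ZNF217 had 48.7, 51.1 and 50.2 FPKM in SK/EPI-siControl and 52.1, 52.2 and 52.0 in SK/EPI-siBCRP. The groups did not overlap, yet the log2 fold change of 0.06 had an adjusted p of 0.0893, and its 95% confidence interval ran from 0.00 to 0.11. BCAS1 stayed at 6 to 16 reads per library in both groups, with 0.0482, 0.0577 and 0.0866 FPKM in SK/EPI-siControl and 0.1004, 0.0651 and 0.0379 in SK/EPI-siBCRP, so a difference was not detectable at this depth. AURKA had 51.0, 50.1 and 51.6 FPKM in SK/EPI-siControl and 47.9, 50.0 and 48.4 in SK/EPI-siBCRP (log2 fold change -0.06, adjusted p = 0.0855). PREX1 had 9.27 ± 0.123 FPKM against 8.97 ± 0.315 (SD, n = 3, log2 fold change -0.04), and SALL4 13.9 ± 0.563 against 14.8 ± 0.577 (0.08), and neither passed. EYA2, DOK5, CASS4 and BMP7 had at most 9 reads in any siRNA library and were not tested. The log2 fold changes of TSHZ2, SULF2, CSE1L, STAU1, UBE2V1, ADNP, PFDN4, FAM210B, CSTF1, RAB22A, VAPB, NPEPL1, GNAS and NELFCD lay between -0.06 and 0.06, and none of these passed.

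By role, 3 of 8 tested genes of transcription and chromatin fell and none rose, and 3 of 6 signalling genes (PMEPA1, PTPN1 and PARD6B, the last with a call lost in 9 of 14 alternatives) rose and none fell. Over all genes tested, 19.4% rose and 18.7% fell. In membrane traffic 1 of 5 rose and 2 fell, in RNA handling and nuclear transport 2 of 7 rose and 2 fell, in ubiquitin, mitosis and proteolysis 2 of 6 rose and 1 fell, and among the remaining 6 genes 3 fell. Along the span, 5 of 20 tested genes rose and 8 fell from EYA2 to SALL4, 0 of 5 rose and 1 fell from TSHZ2 to DOK5, and 3 of 13 rose and 2 fell from FAM210B to CTSZ. The medians of these blocks were -0.04, -0.02 and 0.01, and those of the genes before EYA2, the unlisted genes of the span and the genes beyond CTSZ were 0.00, -0.03 and 0.03. The largest change of the span was made by an unlisted gene. DPM1, a subunit of dolichol phosphate mannose synthase whose start faces that of MOCS3, fell from 80.4 ± 3.56 to 33.9 ± 2.01 FPKM (SD, n = 3, log2 fold change -1.22, adjusted p = 5.4e-06), while its log2 fold change in SK/EPI versus SK-BR-3 was 0.02. The unlisted genes B4GALT5, KCNG1 and SLC9A8 rose by 0.53, 0.35 and 0.18, and the pseudogene ARPC3P1 fell by 0.62.

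The comparisons share no library, although SK/EPI cells were used in both, and 37 listed genes were tested in each. Of these 18 passed in both. RBM38, PARD6B, PTPN1, DDX27 and SPATA2 were higher in SK/EPI than in SK-BR-3, and higher in SK/EPI-siBCRP than in SK/EPI-siControl. ATP9A, CEBPB, MOCS3, NCOA3, NFATC2, STX16 and ZNFX1 were higher in SK/EPI and fell on silencing. CTSZ, PMEPA1 and ARFGEF2 were lower in SK/EPI and rose, and BCAS4, RAE1 and RNF114 were lower in SK/EPI and fell on silencing. All 3 genes of this last class had second-comparison calls that were lost in 6 or more of 14 alternatives, and in the other classes the same calls of PARD6B, DDX27 and MOCS3 were lost in 9, 3 and 3, and the first-comparison calls of SPATA2 and ARFGEF2 in 8 and 2. The direction was thus opposite in 10 of 18 genes (55.6%), read against 2579 of 4892 among all genes that passed in both (52.7%). The log2 fold change of NCOA3 was 0.62 in the first comparison and -0.25 in the second, that of CEBPB 1.46 and -0.29, and that of PMEPA1 -1.58 and 0.20. For ATP9A it was 0.41 and -0.46, but the starting levels differed. Its means were 26.1 FPKM in SK-BR-3, 35.03 in SK/EPI, 25.6 in SK/EPI-siControl and 18.4 in SK/EPI-siBCRP, in tables that may have been normalized separately. Means also differed between SK/EPI and SK/EPI-siControl for RBM38 (53.0 and 40.4 FPKM), MOCS3 (13.5 and 9.96) and PREX1 (3.91 and 9.27). PARD6B had means of 20.4 FPKM in SK/EPI, 13.2 in SK/EPI-siControl and 14.7 in SK/EPI-siBCRP. Among the 37 genes tested in both, those with the widest gaps on the log2 scale between parent and derivative, BCAS1, PREX1 and SALL4, had log2 fold changes of 0.00, -0.04 and 0.08 on silencing. BCAS1 had only 6 to 16 reads per siRNA library, so its value near 0 does not show whether it responded.

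**Figure D4:**
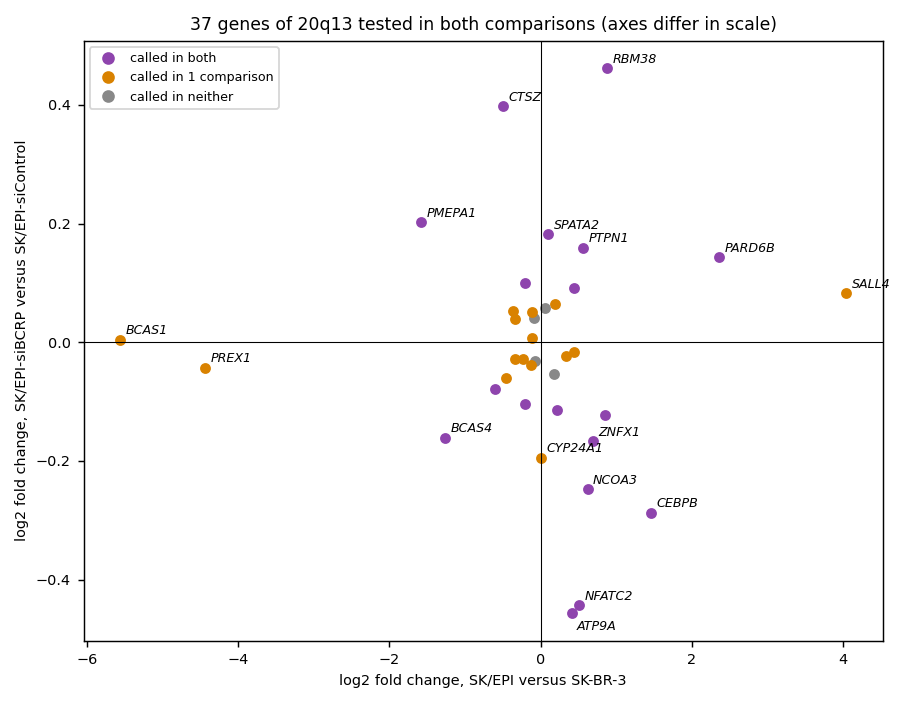
Log2 fold change of the 37 genes tested in both comparisons, SK/EPI versus SK-BR-3 on the horizontal axis and SK/EPI-siBCRP versus SK/EPI-siControl on the vertical axis, coloured by the number of comparisons passed. The axes differ in scale, the 18 genes that passed in both fall into all 4 quadrants, and BCAS1, PREX1 and SALL4 lie close to 0 on the vertical axis, BCAS1 on too few reads to show a difference.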

How the data were processed

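The authors prepared poly-A selected RNA with a NEBNext Ultra kit and deposited FPKM for 58735 genes in 2 tables, 1 per comparison. The 2 tables may have been normalized separately. The submitters' processing notes name HISAT2 2.0.5, featureCounts 1.5.0-p3, DESeq2 1.16.1 and hg38, with no role or order. The unit is not stated in the tables. Values times the merged exon length in GENCODE 29 were whole multiples of 1 step per library (tolerance 0.02), from which reads and depth were computed. The setting for strand and for reads with several positions is not given in the sources used here. As the values are FPKM and not counts, limma was used.

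A gene was tested where 3 or more libraries held 10 or more of its reads, after scaling to the median library size, and all libraries together 15. In each table, log2(FPKM + 1) was fitted on group alone with limma 3.58.1 (eBayes with a trend, R 4.3.3), with Benjamini-Hochberg adjustment over all genes and a threshold of 0.05. The fitted change understates that of genes with low values. A group whose libraries all held 3 reads or fewer was set to the FPKM of 3 reads in each for a bound, which covers counting error only. Replicates differed by more than counting noise (chi-square per degree of freedom 1.64 to 4.27). Figures were drawn and counts made in Python 3.11.15. Code was tested on simulated data.

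The 42 genes, their roles and the marker lists were chosen with earlier results of these data known. Levels per library were given for ZNF217, BCAS1, NCOA3, AURKA and PTPN1 and, in each comparison, for the 6 genes that rose most and the 6 that fell most among those that passed. Unlisted genes named are those that rose or fell most (3 each way) at a mean of at least 1 FPKM, and the neighbours that share exons. Alternatives changed the pseudocount, the filter, the scaling, the test, the threshold and the block, and left out single libraries.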

Additional observations from a re-analysis of the deposited data

How the results depend on the processing

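In SK/EPI versus SK-BR-3, 29 of the 34 calls of listed genes held in every alternative fit run, and 12 of 19 held in SK/EPI-siBCRP versus SK/EPI-siControl. In the first comparison SPATA2, NPEPL1, NELFCD, ARFGEF2 and STAU1 lost theirs at least once, and in the second RNF114, PARD6B, BCAS4, CYP24A1, MOCS3, RAE1 and DDX27, and the cause was not tested. ARFGEF2 and STAU1 lost theirs scaled by reads on genes or without chromosome M, and STAU1 also with voom. Reads on genes were 99.8 to 101% of the total that scales the FPKM in SK-BR-3 and 92.8 to 95.4% in SK/EPI. Chromosome M held 4.18 to 4.23% of these reads in SK-BR-3 and 5.10 to 5.38% in SK/EPI. The list's median log2 fold change in the first comparison was -0.07 and became 0.0068 with no filter, 0.012 scaled by reads on genes, 0.019 without chromosome M and 0.012 with voom, and lay between -0.092 and -0.036 when single libraries were left out. In the second it was -0.02 and became -0.0084 with no filter, -0.037 scaled by reads on genes, -0.034 without chromosome M and -0.036 with voom, and lay between -0.026 and -0.014 when single libraries were left out.

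In the first comparison, SPATA2 lost its call when any 1 library but SK/EPI replicate 1 was left out, NPEPL1 for any but SK-BR-3 replicate 2, and NELFCD without SK-BR-3 replicate 2, SK/EPI replicate 1 or SK/EPI replicate 2. The highest adjusted p over all alternatives was 0.147 for SPATA2, 0.216 for NPEPL1, 0.704 for NELFCD, 0.0753 for ARFGEF2 and 0.431 for STAU1. CSE1L and ADNP passed without SK-BR-3 replicate 1 (adjusted p = 0.0207 and 0.0404), and UBE2V1 without it, without SK/EPI replicate 2, scaled by reads on genes, without chromosome M, with voom or with the replicate block (lowest adjusted p over all alternatives 0.0167). In the second, RNF114 lost its call for any library but SK/EPI-siBCRP replicate 3, PARD6B likewise, BCAS4 for any but SK/EPI-siControl replicate 1, CYP24A1 for any but SK/EPI-siBCRP replicate 1, and RAE1 for any but SK/EPI-siBCRP replicate 2. MOCS3 lost it without SK/EPI-siBCRP replicate 1, SK/EPI-siBCRP replicate 2 or SK/EPI-siControl replicate 2, and DDX27 without SK/EPI-siBCRP replicate 3, SK/EPI-siControl replicate 2 or SK/EPI-siControl replicate 3. The highest adjusted p was 0.112 for RNF114, 0.132 for PARD6B, 0.141 for BCAS4, 0.179 for CYP24A1, 0.113 for RAE1, 0.0737 for MOCS3 and 0.0602 for DDX27.

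Counts moved most with the threshold. At a log2 fold change of at least 1, the first comparison kept 3 listed genes up and 6 down, 5 and 1 unlisted genes of the span, and 1245 and 1033 of all genes, and the second kept 0 and 0, 0 and 1, and 11 and 56. At an adjusted p under 0.01, the second kept 5 listed genes up and 6 down, 4 unlisted genes down, and 2020 and 1833 of all genes. In the second comparison, 7 listed genes fell with no filter, and between 6 and 8 fell and 6 and 7 rose when single libraries were left out.

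Same-numbered libraries did not deviate together (mean correlation -0.030 and 0.028), so the numbers do not pair the samples. With the replicate number as a block, 16 listed genes rose and 17 fell in the first comparison and 7 rose and 8 fell in the second, with 5889 and 5767, and 2896 and 2744, over all genes.

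Genes that changed sign had not passed. CSE1L became 0.0014 scaled by reads on genes and 0.017 without chromosome M, and ADNP 0.012, 0.028 and, with voom, 0.012. With single libraries left out, CYP24A1 lay between -0.013 and 0.037 in the first comparison, and BCAS1 between -0.017 and 0.025, PFDN4 between -0.051 and 0.015 and NELFCD between -0.013 and 0.025 in the second. NELFCD there was also -0.0038 scaled by reads on genes, -0.0011 without chromosome M and -0.0051 with voom. Low reads limit EYA2, BCAS1, BMP7, SALL4, CYP24A1, SULF2, TSHZ2, DOK5 and CASS4.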
